A study of Mus musculus with 9 samples.

Results

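Ttn encodes titin, the giant elastic protein of striated muscle, and its chromatin was examined here in mouse heart ventricle for signal of the nuclear receptor NR4A2, by sequencing of immunoprecipitated chromatin (ChIP-seq). The regions described were chosen by position: every row of the authors' table of 16884 ChIP-seq regions that touched the span of Ttn (build GRCm38, chromosome 2, 76703980 to 76982557, minus strand, RefSeq annotation) or the 10 kb on either side. There were 183 such regions, 1.08% of all. The table lists only regions that the authors found from ChIP signal, and Ttn was picked out with results of these data known, so the numbers of regions and calls below are a description of this gene.

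Hearts of 3 Nr4a2-icTg mice were compared with hearts of 3 control littermates. Nr4a2-icTg mice, called NR4A2 below, came from a cross of an Nr4a2-reporter conditional knockin line (EGE-GJ-095, at ROSA26) with a Myh6-cre/Esr1* line, whose Cre recombinase acts in cardiomyocytes and needs tamoxifen. The controls were the αMHC-MerCreMer littermates, which have the same inducible Cre. All 6 mice were treated at 8 to 9 weeks of age with a single tamoxifen injection of 40 mg/kg and studied on day 3. Each library came from the ventricle of 1 mouse, and fly chromatin was added to each reaction as a spike-in. The ventricle also holds cells in which Myh6 is not active, and a change in the number of cardiomyocytes cannot be told apart from a change per cell. P-values measure the spread between these 6 mice only. Input chromatin was not analysed here, so levels are not relative to input.

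Titin molecules run from the Z-disc, where neighbouring sarcomeres are joined, to the M-band at the middle of the sarcomere. The I-band part is a spring that sets the passive stiffness of heart muscle, the A-band part lies along the myosin filament, and the M-band part carries a kinase domain. Titin length in the heart is set by alternative splicing, in which the RNA-binding protein RBM20 has a central part, and truncating changes in the gene are a known cause of dilated cardiomyopathy. NR4A2 is a transcription factor of the nuclear receptor superfamily with no known natural ligand, and NR4A proteins can bind as monomers to an octamer called the NBRE.

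The promoter of Ttn lay inside one of these regions, so its sequence is shown as the place where transcription of the gene begins. The 250 bases before the RefSeq start site are at chr2:76982548-76982797 (GRCm38.p6, minus strand, printed 5′ to 3′). That start site is 10 bp inside the end of the gene span. Capitals mark matches to the MEF2 motif, to CCAAT (at 2 places) and to TATAA, in that order from the 5′ end.

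Ttn promoter: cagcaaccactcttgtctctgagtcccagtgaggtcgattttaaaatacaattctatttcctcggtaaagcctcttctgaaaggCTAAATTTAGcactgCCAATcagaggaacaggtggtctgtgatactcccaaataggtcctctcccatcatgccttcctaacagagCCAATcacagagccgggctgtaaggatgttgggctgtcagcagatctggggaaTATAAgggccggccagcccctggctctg

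The TATAA match began 28 bases before the start site, the CCAAT matches 151 and 81 bases before it and the MEF2 match 166 bases before it. MEF2 factors drive many genes of the contractile apparatus. Among 32851 RefSeq promoters of 300 bases (250 before and 50 after a start), searched on both strands, 24.9% held TATAA, 37.4% CCAAT and 3.19% the MEF2 motif. Neither the NBRE, AAAGGTCA, nor the half-site it contains, AGGTCA, was found in the Ttn window, and these occurred in 1.51% and 16.3% of the promoters. The SRF CArG motif, in 1.63% of promoters, was not found there either. A match or its absence in this window is a description of the letters only.

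The labelled tissue was checked at marker genes, although ChIP signal at a gene is not its expression. All 8 cardiomyocyte marker genes listed had a region. Their summed signal was 28912 to 43746 CPM in control and 36936 to 45847 CPM in NR4A2 hearts. CPM are reads scaled to nearly the same total in regions per library. Of that sum, the 4 regions at Myh6 held 18385 to 27897 CPM in control and 23940 to 29930 CPM in NR4A2 hearts. Fibroblast markers had a region at 3 of 6 genes (99.6 to 163 and 88.3 to 146 CPM), endothelial markers at 4 of 5 (557 to 667 and 396 to 535 CPM), smooth muscle markers at 1 of 3 (5.43 to 16.4 and 5.05 to 14.2 CPM) and leukocyte markers at 1 of 4 (418 to 460.4 and 340.5 to 375 CPM). Dcn, Pdgfra, Postn, Tek, Myh11, Tagln, Adgre1, Csf1r and Ptprc had none. The part of other cells in the signal at Ttn was not tested. Libraries held 549700 to 1035856 reads in regions. Control mouse 3 was the shallowest.

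Regions ran along Ttn from one end to the other. They occupied 57.7% of the 278578 bp span, ranged in length from 200 to 7702 bp (median 587 bp), and were separated by gaps with a median of 399.5 bp. Of the 182 gaps, 107 were shorter than 500 bp and 1 was longer than 5 kb, a stretch of 6094 bp that began about 21.1 kb from the 5′ end. The cover ended at the gene's ends. Of the 183 regions, 182 touched the gene span and 1 lay 81 bp beyond its 3′ end, and region 1 reached 528 bp upstream of the 5′ end. Beyond these, the next region on the table lay 54799 bp upstream of the gene and 28532 bp past its 3′ end. In flanks as long as the gene there were 4 further regions upstream and 4 regions on the 3′ side, counting the one next to the gene.

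No other gene had as many. Among 11151 protein-coding genes with a region within 10 kb, Ttn ranked 1 in the number of regions and 1 in regions per 100 kb (61.3), while it ranked 340 in length. Zbtb16, which encodes a zinc finger transcription factor, followed with 43 regions, and the fatty acid transporter gene Cd36 had 29. Summed over regions, the signal at Ttn (mean of 6 mice, 10475 CPM) ranked 6, behind Myh7 and Myh6, the cardiac myosin heavy chains, and Il25, Cmtm5 and Efs, which lie beside them and share their regions.

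**Figure D1:**
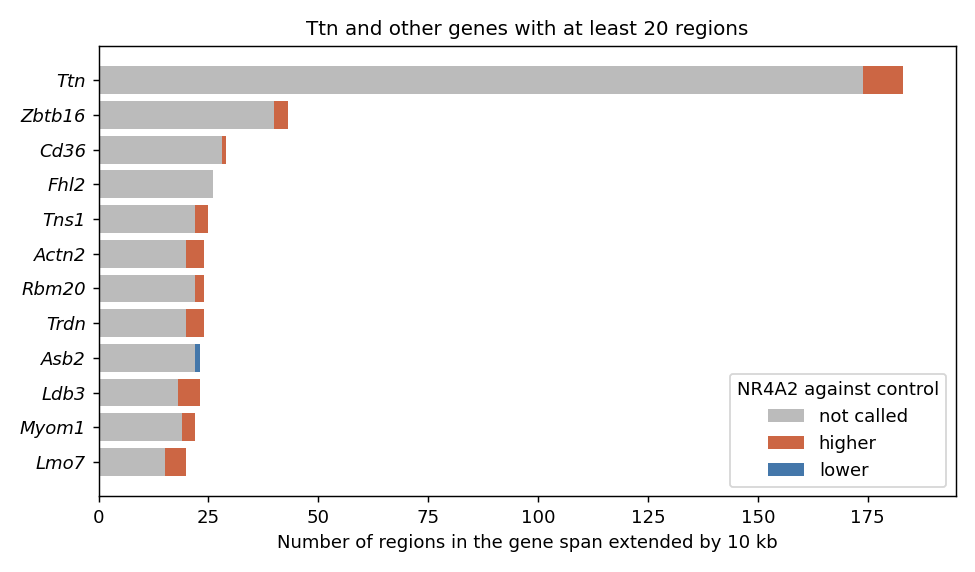
Number of ChIP-seq regions in the span of each gene extended by 10 kb, for Ttn and 11 of the 12 other genes with at least 20 regions; bar colours give regions not called, called higher or called lower in NR4A2 hearts. Ttn has 183 regions and the next gene, Zbtb16, 43; 9 regions at Ttn were called higher and 0 lower.

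Per length, the signal at Ttn was low and even. The median was 59.5 CPM per kb of region (quartiles 54.2 and 65.6), against 84.7 CPM per kb (quartiles 63.95 and 114) over all regions of the table. The strongest region per length was region 1, which holds the promoter, with 137 CPM per kb. Regions 3, 2 and 7 from the 5′ end followed with 90.9, 83.1 and 80.96 CPM per kb. Across the 183 regions the log2 of mean CPM correlated with the log2 of region length at r = 0.98, so a long region was a strong one. The profiles of any 2 mice of the same group correlated at 0.854 to 0.907 on log2(CPM + 1), and those of 2 mice of different groups at 0.847 to 0.905. Over all regions the corresponding values were 0.824 to 0.913 and 0.645 to 0.760. Once CPM was divided by region length, the correlation along Ttn was -0.08 to 0.21 within groups and -0.0084 to 0.20 between them. The order of regions by CPM followed their length, and their order per kb was hardly shared by any pair of mice. These correlations run across regions of 1 gene in shared libraries, so no test was made of them.

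**Figure D2:**
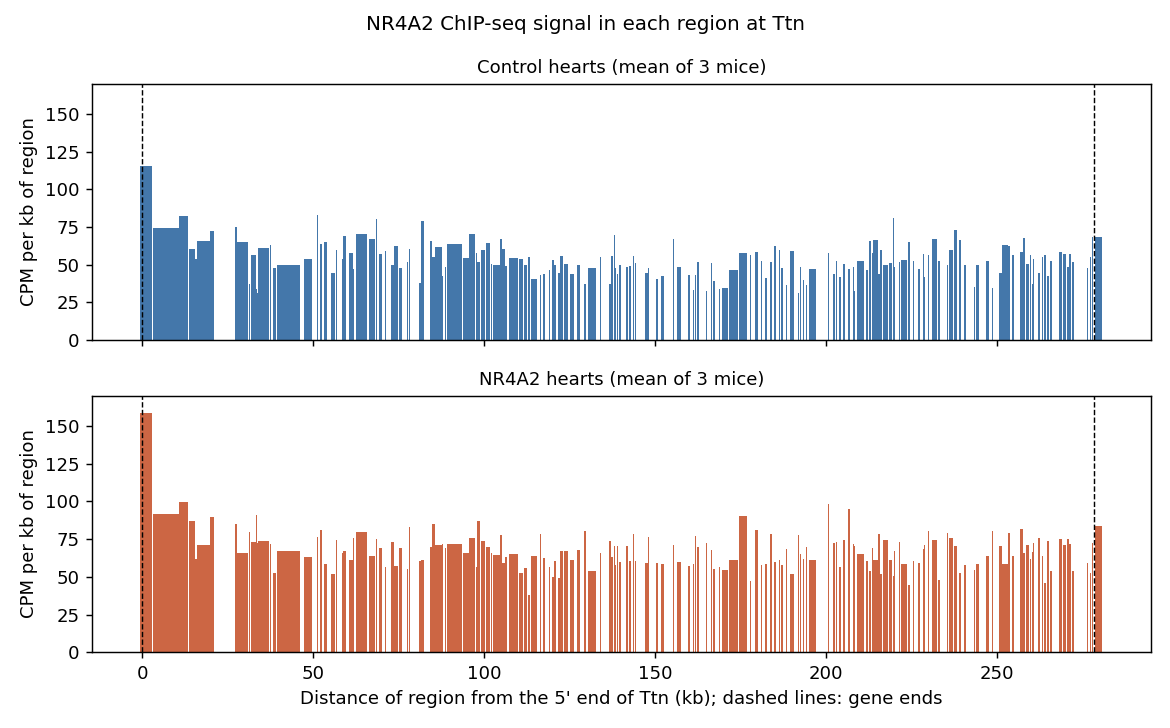
Mean CPM per kb of region (vertical axis) for each of the 183 regions, drawn at its true width against the distance from the 5′ end of Ttn in kb, for control hearts above and NR4A2 hearts below (mean of 3 mice each). Dashed lines are the gene ends. The tallest block is region 1 over the promoter, and both profiles run along the whole gene. The log2 fold change was above 0 in 153 of the 183 regions, with a median of 0.31.

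Signal was stronger towards the 5′ end. The span was divided into 5 equal parts of 55.7 kb, numbered from the 5′ end. In part 1, CPM per kb of gene span was 58.99, 52.0 and 42.3 in the control mice and 60.8, 70.6 and 57.6 in the NR4A2 mice. In part 3 it was 22.6, 20.5 and 18.1 in control and 22.3, 29.3 and 29.5 in NR4A2 mice, and its mean was the lowest of the 5 parts in both groups. In part 5 it was 31.1, 22.9 and 20.5 in control and 27.2, 33.7 and 26.9 in NR4A2 mice. In each mouse part 1 was higher than any other part. Regions covered 75.8% of part 1, 69.9% of part 2, 43.3% of part 3, 55.8% of part 4 and 44.6% of part 5, and median region length went from 1163 bp in part 1 to 510 bp in part 3. The values of the groups overlapped in every part. In part 3, for example, NR4A2 mouse 1 fell between control mice 1 and 2. Part 1 held 28.5 to 32.1% of the CPM of Ttn in each of the 6 libraries. Its mean was 30.4% in both groups (SD 1.11 in control and 1.77 in NR4A2 hearts).

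**Figure D3:**
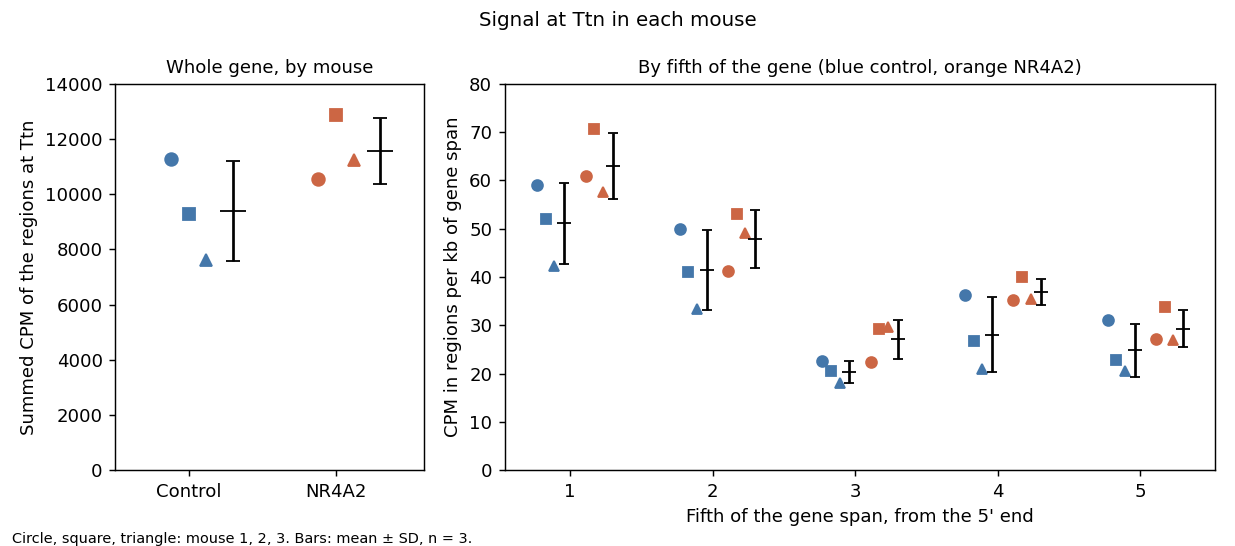
Left, summed CPM of the 183 regions in each mouse; right, CPM in regions per kb of gene span for each of 5 equal parts of Ttn from the 5′ end. Points are mice (circle, square and triangle for mouse 1, 2 and 3) and bars are mean ± SD, n = 3; control mouse 3 is the lowest in the whole gene and NR4A2 mouse 2 the highest, and the groups overlap.

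Summed over the gene, the signal was not separated between the groups. It was 11267, 9279 and 7629 CPM in control mice 1, 2 and 3 and 10560.3, 12876 and 11237 CPM in NR4A2 mice 1, 2 and 3. NR4A2 mouse 1 and NR4A2 mouse 3 lay below control mouse 1, while control mouse 3 was the lowest of all. The means were 9392 ± 1822 and 11558 ± 1191 CPM (SD, n = 3), a ratio of 1.23, and an exact permutation test, two-sided, gave p = 0.3, where 3 mice against 3 cannot go below 0.1. As a share of all CPM in regions, Ttn took 0.767 to 1.12% in control and 1.07 to 1.28% in NR4A2 hearts. The log2 difference of the sums was 0.31, and it was 0.17 without control mouse 3.

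Region by region, 9 of the 183 were called higher in NR4A2 hearts (4.92%), against 14.7% of all 16884 regions, and 0 were called lower, against 3.17%. A call is an adjusted p under 0.05 with limma, a linear model fitted to log2(CPM + 1) over all regions, with Benjamini-Hochberg adjustment over all of them. At an unadjusted p under 0.05, limma gave 25 regions higher and 0 lower at Ttn, against 19.1% and 9.64% of all regions. On whole reads edgeR called 7 higher and 0 lower, against 15.2% and 3.43% of all regions, and DESeq2 called 1 higher and 0 lower, against 12.9% and 1.49%. The log2 fold change ranged from -0.80 to 1.44, and it was beyond 1 in either direction in 10 of 183 regions (5.46%), against 18.2% of all regions. The 9 called regions had a median log2 fold change of 0.67, while over the whole table the regions called higher had one of 1.87. They also differed in level, since the regions called at Ttn had a median of 72.04 CPM in control hearts and those called over all regions had 9.70 CPM.

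Most regions at Ttn leaned the same way. The log2 fold change was above 0 in 153 of 183 (83.6%), against 45.3% of all regions, with a median of 0.31 against -0.06. By the mean the contrast was smaller: mean log2(CPM + 1) was higher in NR4A2 hearts by 0.34 at Ttn and by 0.21 over all regions. In 30 regions (16.4%) all 3 NR4A2 mice were above all 3 control mice, against 19.9% over the table, and in 0 regions were they all below, against 11.7%. Control mouse 3 was the lowest of the 6 in 100 of the regions at Ttn (54.6%), against 20.6% of all regions. NR4A2 mouse 2 was the highest in 72 (39.3%), against 14.1%. Without control mouse 3 the median at Ttn was 0.18 and 133 regions were above 0. Without NR4A2 mouse 2 they were 0.25 and 140. The regions share 6 libraries and 1 gene and are not replicates. Without control mouse 3, 1 region was called higher, and without control mouse 1, 16 were, against 13.8% and 13.3% of all regions.

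**Figure D4:**
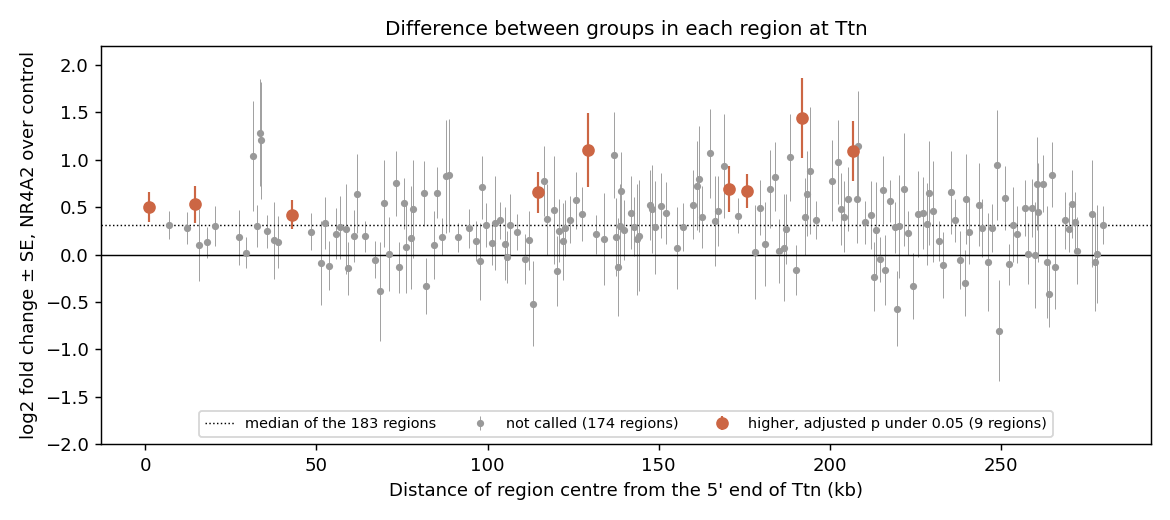
Log2 fold change of NR4A2 over control hearts with its SE (vertical axis) for each of the 183 regions against distance from the 5′ end of Ttn in kb. Orange points are the 9 regions with an adjusted p under 0.05, grey points the other 174, and the dotted line is the median, 0.31; called regions lie in parts 1, 3 and 4 of the gene.

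Calls fell in 3 parts of the gene. They were at 3 of 21 regions in part 1, 2 of 39 in part 3 and 4 of 41 in part 4. Parts 2 and 5, with 38 and 43 regions, had 0. Over all regions 14.7% were called higher. Which parts held calls depended on the mice used: without control mouse 1, regions 33 and 42 in part 2 and region 173 in part 5 were called. The median log2 fold change was 0.28, 0.21, 0.37, 0.46 and 0.32 from part 1 to part 5. Along the gene, log2 fold change and distance from the 5′ end correlated at r = -0.0031 (183 regions, Spearman rho 0.047).

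The 5 strongest regions by mean CPM included the 2 at the promoter end. Region 1 (chr2:76979784-76983085, 3302 bp) contains the promoter and the first kb of the gene. Its signal was 487, 398 and 259 CPM in control mice and 491, 542 and 535 CPM in NR4A2 mice. The groups did not overlap, but control mouse 1 was close to NR4A2 mouse 1. The log2 fold change was 0.50 ± 0.16 (SE, limma, adjusted p = 0.0195), and without control mouse 3 it was 0.25 (adjusted p = 0.300). Region 2 (chr2:76971786-76979487), the longest, had 697, 536 and 487 CPM in control and 685, 799 and 634 CPM in NR4A2 mice. The groups overlapped and the region was not called (0.31 ± 0.15, limma, adjusted p = 0.149).

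Of the other 3 strongest regions, 1 was called. Region 17 (chr2:76936320-76943092), 42.9 kb from the 5′ end, had 387, 323 and 306 CPM in control and 448, 522 and 394 CPM in NR4A2 mice. NR4A2 mouse 3 was barely above control mouse 1 (log2 fold change 0.42 ± 0.15, limma, adjusted p = 0.0431). Region 46 (chr2:76888957-76893457) had 329, 277 and 250 CPM in control against 302, 352 and 313 CPM in NR4A2 mice. Region 6 (chr2:76962688-76966469) had 281, 269 and 199 CPM against 270.2, 263 and 276 CPM. In both of these the groups overlapped, with log2 fold changes of 0.18 ± 0.16 and 0.13 ± 0.16 (limma, adjusted p = 0.492 and 0.655), and at region 6 the value turned to -0.03 without control mouse 3.

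The 5 largest increases among the called regions were in parts 3 and 4, at regions of 493 to 2468 bp. Region 114 (chr2:76790325-76790817, 493 bp), 192 kb from the 5′ end, had 21.5, 19.5 and 5.43 CPM in control mice, where control mouse 3 held 3 reads, and 39.1, 42.6 and 32.8 CPM in NR4A2 mice. All NR4A2 mice were above all control mice, with a log2 fold change of 1.44 ± 0.42 (limma, adjusted p = 0.00898) that was 0.86 (adjusted p = 0.130) without control mouse 3. Region 73 (chr2:76852829-76853333) had 28.7, 11.7 and 16.3 CPM in control and 36.3, 56.7 and 29.0 CPM in NR4A2 mice. Control mouse 1 was at almost the level of NR4A2 mouse 3, and the log2 fold change was 1.10 ± 0.39 (limma, adjusted p = 0.0343).

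At region 124 (chr2:76775359-76776103) the groups overlapped in spite of the call. The signal was 55.3, 34.1 and 16.3 CPM in control and 64.9, 96.2 and 50.5 CPM in NR4A2 mice, so that NR4A2 mouse 3 lay below control mouse 1. The log2 fold change was 1.09 ± 0.32 (limma, adjusted p = 0.0102), and 0.64 without control mouse 3. Regions 101 and 103 lie near each other, 171 and 176 kb from the 5′ end. Region 101 (chr2:76811107-76812785) had 81.97, 48.7 and 43.4 CPM in control and 86.9, 105.6 and 81.98 CPM in NR4A2 mice. Control mouse 1 and NR4A2 mouse 3 were level there, and the log2 fold change was 0.70 ± 0.24 (limma, adjusted p = 0.0322).

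Region 103 (chr2:76805499-76807966, 2468 bp) gave the smallest adjusted p of the gene. Its signal was 185, 137 and 105 CPM in control mice and 204, 232 and 231 CPM in NR4A2 mice. The groups did not overlap, with means of 143 ± 40.5 and 222 ± 15.6 CPM (SD, n = 3). The log2 fold change was 0.67 ± 0.18 (limma, adjusted p = 0.00372). This was the 1 call that held whichever mouse was left out, with an adjusted p of at most 0.0491, and the 1 region at Ttn called by DESeq2.

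Regions 4 and 62 make up the 9. Region 4 (chr2:76967057-76968828) was nearest to the threshold from inside, with 112, 128 and 81.5 CPM in control and 133, 192 and 139 CPM in NR4A2 mice. NR4A2 mouse 1 was barely above control mouse 2 (log2 fold change 0.53 ± 0.20, limma, adjusted p = 0.0481). Region 62 (chr2:76867019-76868798) had 71.7, 84.7 and 59.7 CPM in control and 107, 102 and 131 CPM in NR4A2 mice, with a clear gap between the groups (0.65 ± 0.22, limma, adjusted p = 0.0219).

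**Figure D5:**
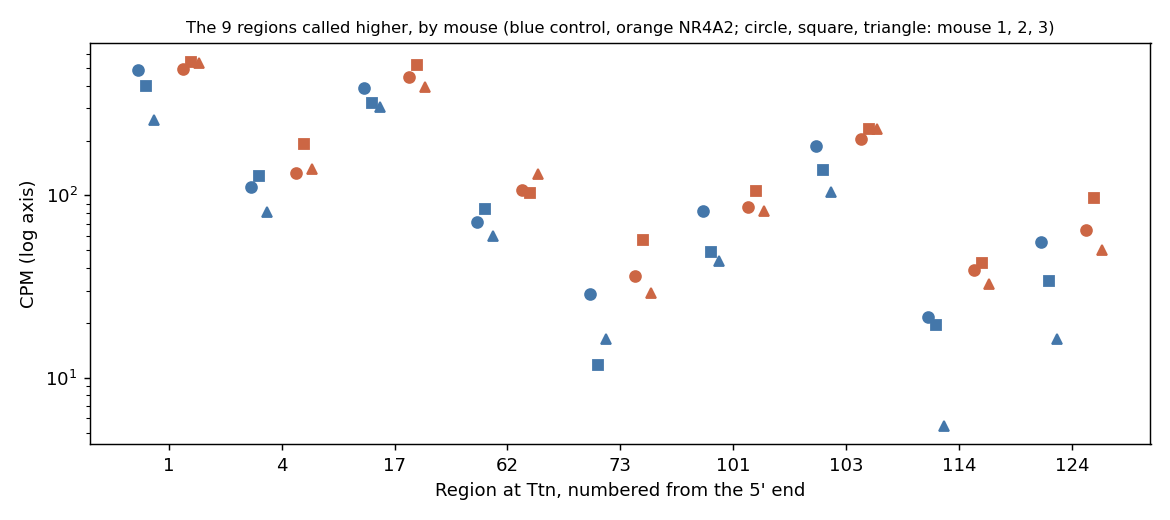
CPM on a log axis in each mouse for the 9 regions called higher, numbered from the 5′ end of Ttn (blue control, orange NR4A2; circle, square and triangle for mouse 1, 2 and 3). The groups are separate in 8 regions and overlap at region 124, and control mouse 3 is the lowest control in 8 of the 9.

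Just outside the threshold were regions 134, 170 and 173, with adjusted p of 0.0672, 0.0693 and 0.0775 (limma). Region 170 (chr2:76719805-76720540), in part 5 of the gene, had 33.8, 36.01 and 29.0 CPM in control and 56.3, 52.02 and 59.3 CPM in NR4A2 mice. Both groups were tight and well apart, and the log2 fold change of 0.75 ± 0.30 was larger than that of 6 called regions. Region 134 (chr2:76764364-76765694) had 78.9, 63.3 and 57.9 against 98.3, 88.3 and 109.7 CPM (0.57 ± 0.22), and region 173 (chr2:76717234-76717839) 36.9, 24.3 and 16.3 against 43.9, 42.6 and 47.9 CPM (0.84 ± 0.34). The groups did not overlap in either. In all, 22 of the 174 regions not called had all NR4A2 mice above all control mice. Called regions included, it was 30 of 183 (16.4%) at Ttn, fewer than the 19.9% of all regions.

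At the 3′ end no region was called. The last kb of the gene held regions 181 and 182 (chr2:76704924-76705181 and chr2:76704374-76704582). Region 181 had 16.4, 15.6 and 10.9 CPM in control and 16.2, 14.2 and 10.1 CPM in NR4A2 mice, and region 182 had 18.4, 13.6 and 10.9 against 19.1, 18.9 and 7.57 CPM. The groups overlapped fully, with log2 fold changes of -0.08 ± 0.52 and 0.0080 ± 0.52 (limma, adjusted p = 0.943 and 0.995). At these depths, a median of 13 to 35 reads per region and library and a median SE of 0.36 at Ttn, a log2 difference of 0.31 was not detectable in a region with the median SE.

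In the authors' deposited table, 3 regions at Ttn were marked as up, 0 as down and 180 as unchanged, against 14.9 and 1.95% of all regions marked up and down. The 3 were regions 73, 114 and 124, with an FDR of 0.0370, 0.0183 and 0.0104 in the authors' deposited table. Region 103 had an FDR of 0.00935 and a log2 fold change of 0.61 in the authors' deposited table and was marked unchanged there; the smallest log2 fold change marked up in that table was 0.70.

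Genes with a pattern over the 6 mice like that of Ttn were sought by the distance between log2 summed CPM, each gene centred on its own mean. No other gene had 92 regions or more, as the rule first set required, so the 12 genes with at least 20 were taken. Among the nearest were Fhl2, which encodes a LIM protein that binds titin (distance 0.29), Actn2, the Z-disc α-actinin (0.37), Ldb3, a Z-disc PDZ-LIM protein (0.44), and Myom1, myomesin of the M-band (0.48). In each of these, no control mouse was more than 0.071 above the gene's own mean on the log2 scale. NR4A2 mouse 2 was above that mean, by the least at Myom1 (0.248). At Ttn itself control mouse 1 was 0.125 above the mean, while NR4A2 mouse 1 was 0.031 and NR4A2 mouse 3 0.121 above it. At Fhl2 the summed CPM was 6715, 6645 and 4845 in control and 6521, 7957 and 6088 in NR4A2 mice. Control mouse 3 was the lowest there too, and 0 of 26 regions were called. At Actn2 4 of 24 regions were called higher, at Ldb3 5 of 23 and at Myom1 3 of 22, with 0 lower. Over all regions 14.7% were called higher and 3.17% lower. With 6 libraries in 2 groups, such distances are a description.

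Genes whose products bind titin or process its transcript were taken from a list of 38. Of these, 36 had a region, and 20 (55.6%) had at least 1 called higher, against 14.2% of all genes with a region, while 3 (8.33%) had 1 called lower, against 6.24%. Region by region the share was close to that of the table: 42 of the 266 regions (15.8%) were higher and 5 (1.88%) lower, with a median log2 fold change of 0.32. Genes with many regions have more chances of holding a called one. The 2 genes without a region were Ankrd2 and Capn3.

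Among the 10 partners with the smallest p, those of the Z-disc and I-band were 6 genes, each with a region that rose. For each gene the region with the smallest p is given. No region was called at Tcap, Mypn, Ankrd1 or Cryab, also on the list. Their regions with the smallest p had log2 fold changes of -0.39, -0.42, -0.34 and -0.12. A region 6180 bp outside Smyd2, a methyltransferase that modifies HSP90 beside titin's I-band, went from 15.5 ± 3.53 to 85.3 ± 29.6 CPM (SD, n = 3; log2 fold change 2.34 ± 0.33 SE, limma, adjusted p = 5.9e-08). The region over Csrp3, the muscle LIM protein, went from 592 ± 139 to 1187 ± 121 CPM (1.02 ± 0.15). Its control mice had 752, 520 and 505 CPM and its NR4A2 mice 1074, 1315 and 1172 CPM, so the groups were far apart. Further increases were at Ldb3 (1.06 ± 0.18), near Myoz2, which encodes a calcineurin-binding Z-disc protein (1.82 ± 0.38), at Ankrd23, an ankyrin repeat protein that binds I-band titin (1.06 ± 0.23), and at Palld, palladin (1.84 ± 0.43). All 6 had adjusted p of at most 0.000707 (limma).

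M-band and A-band partners and the splicing factor differed in direction. Signal rose near Obsl1, a cytoskeletal adaptor, from 6.10 ± 1.91 to 46.04 ± 9.90 CPM (log2 fold change 2.75 ± 0.47 SE, limma, adjusted p = 3.8e-06) and at Myom1 from 18.5 ± 3.54 to 53.9 ± 8.73 CPM (1.50 ± 0.35). At Rbm20, the regulator of titin splicing, 2 of 24 regions were higher (8.33%), against 14.7% of all regions. The one with the smallest p went from 15.9 ± 4.39 to 63.0 ± 21.2 CPM (1.91 ± 0.36, limma, adjusted p = 2.4e-05). Over the 24 regions the median log2 fold change was 0.30. Their summed CPM overlapped between groups, at 623, 545 and 519 in control and 594, 676 and 888 in NR4A2 mice. Signal fell beside Mybpc3, myosin-binding protein C of the A-band, where 3 of 14 regions were lower, against 3.17% of all regions. The region there with the smallest p was at 356, 309 and 295 CPM in control and 186, 222 and 155 CPM in NR4A2 mice (-0.77 ± 0.16, limma, adjusted p = 0.0002). The 10 partner calls given with values held with each mouse left out and with edgeR. Other partners with a higher region included Des, Nebl, Fhl1, Tmod1, Actn2, Myom2, Myh6 and Myh7 (which share it), Cmya5 and Synpo2, and those with a lower one included Nbr1. Among marker genes with a region, 5 of 8 cardiomyocyte genes had one called higher and 2 had one called lower, and 2 of 4 endothelial genes had one called lower, where 14.2% of all genes had a higher and 6.24% a lower one. The summed signal of the endothelial markers and the signal at the 1 leukocyte marker were lower in all NR4A2 mice than in all control mice, with no call at the leukocyte marker. The part of these cells in the results was not tested.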

How the data were processed

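NR4A2 ChIP-seq (antibody 9D12) was analysed in 3 control and 3 NR4A2 ventricles. The other 3 samples of the series, an antibody test with its input and a pooled input, were not used. The deposited table gives CPM for each region and mouse, together with the authors' log2 fold changes, p-values and FDR. Reads were aligned with BWA to GRCm38 (mm10), per the submitters' processing notes. For the peak caller, merging, counting, filters and use of the fly spike-in, the methods were not given in the sources used here. Deposited CPM of each library were whole multiples of a single step, and 100% of values came out as whole reads within a tolerance of 0.001. One read was worth 0.955 to 1.81 CPM. Summed over regions, CPM came to 989059 to 1009110 per library, so a change shared by all regions would not show in them. The recovered reads in regions summed to 549700 to 1035856 per library.

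Because the unit was CPM, the test was limma 3.58.1 (trend and robust moderation) on log2(CPM + 1) over all 16884 regions with no filter and with Benjamini-Hochberg adjustment. It was tested on simulated data. edgeR 4.0.16 and DESeq2 1.42.0 on the recovered reads were alternatives, with other pseudocounts, scalings, filters and left-out mice. Single sums were compared by exact permutation tests. Genes are RefSeq genes of GRCm38, extended by 10 kb. Regions were named where they had the 5 highest mean CPM, were among the 5 largest called increases, touched the first or last kb of the gene, or were nearest to the threshold (3 inside and 3 outside); region 62 was added because it completes the called regions. Partner genes were named as the 10 with the smallest p. The gene, the lists and the rules were chosen with earlier results of these data known. The minimum of 20 regions for similar genes, CPM per kb, and the TATA box, CCAAT box, MEF2 and SRF motifs were added after seeing the data. Mice with the same number in both groups deviated together at r = -0.066, 0.061 and 0.033, and the numbers were not taken as pairs. Some genes are not reported here.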

Additional observations from a re-analysis of the deposited data

How the results depend on the processing

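The number of regions at Ttn called higher, 9, was 0 without scaling for depth (3 at an unadjusted p under 0.05), 3 among the 78 regions of at least median signal, 2 at an adjusted p under 0.01, 1 with DESeq2 and 7 with edgeR. The share of all regions called higher was 14.7% in the main fit and 8.28% without scaling. It was 5.70% among those of at least median signal, 12.9% with DESeq2 and 15.2% with edgeR. Leaving out 1 mouse gave 1 to 16 calls: 16 without control mouse 1, 7 without control mouse 2, 1 without control mouse 3, 4 without NR4A2 mouse 1, 4 without NR4A2 mouse 2 and 5 without NR4A2 mouse 3. These fits had 2 mice in 1 arm, and whether that moved the counts was not tested. Among these settings, 0 regions were called lower at Ttn. The replicate block gave 10 regions higher, 9 of them called without it, and 0 lower, while 15.0% of all regions were called higher. For the summed CPM the replicate block gave a log2 difference of 0.31 with an exact p of 0.5. The log2 difference of the sums was 0.17 to 0.45 with 1 mouse left out. Quantile normalization gave 9 calls, 7 of them shared, against 9.67% of all regions called higher, and a median of 0.19 at Ttn. Region 6 lay between -0.025 and 0.22 with 1 mouse left out, below 0 without control mouse 3. Region 182, at 0.0080, turned to -0.59 under quantile normalization and to -0.021 without scaling, and lay between -0.20 and 0.42 with 1 mouse left out. Region 181 lay between -0.25 and 0.10 with 1 mouse left out, above 0 without control mouse 1 or NR4A2 mouse 3. Partner genes with a higher region numbered 17 to 20 with 1 mouse left out. Those with a lower region numbered 1 to 5, the fewest without NR4A2 mouse 3 and the most without NR4A2 mouse 2. The causes of these changes were not tested. In control mouse 3 the median region at Ttn held 13 reads, which limits single regions.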

Other observations

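The genes on either side of Ttn had few regions. Ccdc141, which begins past the 5′ end of Ttn (chr2:77009902-77173769), had 4 regions with a median log2 fold change of 0.66, and 1 of them was called higher. Its summed signal was 34.8, 42.8 and 45.3 CPM in control and 80.2, 100.9 and 73.2 CPM in NR4A2 mice, and the groups did not overlap. Plekha3, past the 3′ end, had 6 regions within 10 kb, 4 of which also belong to Ttn, and 1 was called lower. Fkbp7 had 2 regions, the same 2 of Plekha3 that do not belong to Ttn, so the lower call is the same region. Of all genes with a region, 14.2% had at least 1 called higher and 6.24% at least 1 called lower. The 17 regions of at least 2 kb at Ttn were 6.67% of the 255 regions of that length in the table.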
